A study of Mus musculus with 4 samples.

Results

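The kinases of the mitogen-activated protein (MAP) kinase cascades were examined at the RNA level in mouse macrophages kept with hemin and then with or without a bacterial product. The members are the gene symbols made of Mapk, Map2k, Map3k, Map4k or Mapkapk and a number, and 43 of the 23284 genes in the files have such a symbol. They fall into 13 MAPK genes, 7 MAP2K genes, 15 MAP3K genes, 5 MAP4K genes and 3 MAPKAPK genes. RNA came from bone marrow-derived macrophages, which are grown in culture from marrow progenitors. The 4 groups were Spic−/− cells with 100 ng/ml lipopolysaccharide (LPS) for 4 h, Spic−/− cells without LPS, control (Spic+/+) cells with LPS for 4 h, and control cells without LPS. All 4 cultures, the controls without LPS included, had first spent 18 h with hemin (oxidised heme). Its dose is 40 µM by the protocol, but mM is the unit in the descriptions of the samples. By their titles the knockout is conditional, and neither the allele nor a Cre driver is named in the labels. Each group is 1 library of poly(A) RNA, so no test was run, and differences between cultures cannot be told apart from differences between groups.

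A MAP kinase cascade is a relay of protein kinases in which each tier phosphorylates the next. MAP4Ks and adaptor proteins act at the top, MAP3Ks phosphorylate MAP2Ks, MAP2Ks phosphorylate both a threonine and a tyrosine of the MAPKs (ERK, JNK, p38 and ERK5), and the MAPKs phosphorylate transcription factors and further kinases such as the MAPKAPKs. LPS, bound by CD14 and by Toll-like receptor 4 with MD-2, starts these relays through TAK1 (the product of Map3k7) and TPL2 (the product of Map3k8), and in macrophages they raise the output and the stability of cytokine mRNA. The relays themselves are driven by phosphorylation, which RNA levels do not measure. Spi-C, the product of Spic, is an Ets-family transcription factor induced by heme, and the series asks whether it lowers part of the genes driven by Toll-like receptors.

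Levels are in FPKM, which counts fragments per kilobase of exon and scales them to make libraries comparable. Estimated from the steps between low values, a level of 1 FPKM corresponded to 7.99 fragments per kilobase in knockout with LPS, 12.8 in knockout without LPS, 10.5 in control with LPS and 15.5 in control without LPS. Intervals beside a ratio of FPKM are exact 95% binomial (Clopper-Pearson) intervals of these estimated fragments, and cover counting error only. Spic stood at 80.8 FPKM in knockout with LPS and 14.98 FPKM in knockout without LPS, against 406 and 53.1 FPKM in control, so it was lower in knockout but not at 0. The macrophage markers Csf1r, Cd68, Itgam, Lyz2, Cd14, Mertk, Fcgr1 and Emr1 all passed 5 FPKM. Of the 5 lists of T and NK, erythroid, mast, B and dendritic cell markers, none had more than 1 gene at 1 FPKM or more, and Cd3e, Hbb-b1 and Cpa3 were among their markers listed at 0 in every library. Of 7 neutrophil markers 4 reached 1 FPKM, with sums of 131 and 31.4 FPKM in knockout with and without LPS, against 242 and 41.4 FPKM in control, and Mpo was at 0. Most of this sum was S100a8 and S100a9, and its part in the LPS ratios below was not tested. The 12 stromal and endothelial markers summed to 419 and 379 FPKM in knockout, with and without LPS, against 752 and 735 FPKM in control. The endothelial genes Pecam1, Cdh5 and Kdr added little to these sums, with a highest value of 1.13 FPKM (Kdr, knockout with LPS).

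Most genes of each tier reached 5 FPKM. In at least 1 knockout library 8 of 13 MAPK, 6 of 7 MAP2K, 9 of 15 MAP3K, 3 of 5 MAP4K and 3 of 3 MAPKAPK genes did so. In at least 1 library 36 of 43 members reached 1 FPKM and 29 reached 5 FPKM, and 11 stood at 20 FPKM or more in every library. The 7 members that stayed under 1 FPKM everywhere were Mapk4, Mapk10, Mapk12, Mapk13, Mapk15, Map2k6 and Map3k13, with 0.791 FPKM (Map2k6, knockout without LPS) as their highest value. Mapk4, an atypical MAPK gene, was listed at 0 in all 4 libraries. Mapk10 encodes JNK3, known from brain, and Mapk12 and Mapk13 encode the p38 gamma and delta forms. A further 7 members reached 1 but not 5 FPKM: Map3k4, Map3k6, Map3k9, Map3k10, Map3k15, Map4k1 and Map4k2. Mapkapk2, which encodes the p38-activated kinase MK2, was the most abundant member in all 4 libraries. It ranked 128th among all genes in knockout with LPS and 770th in knockout without LPS, against 141st and 818th in control with and without LPS.

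**Figure D1:**
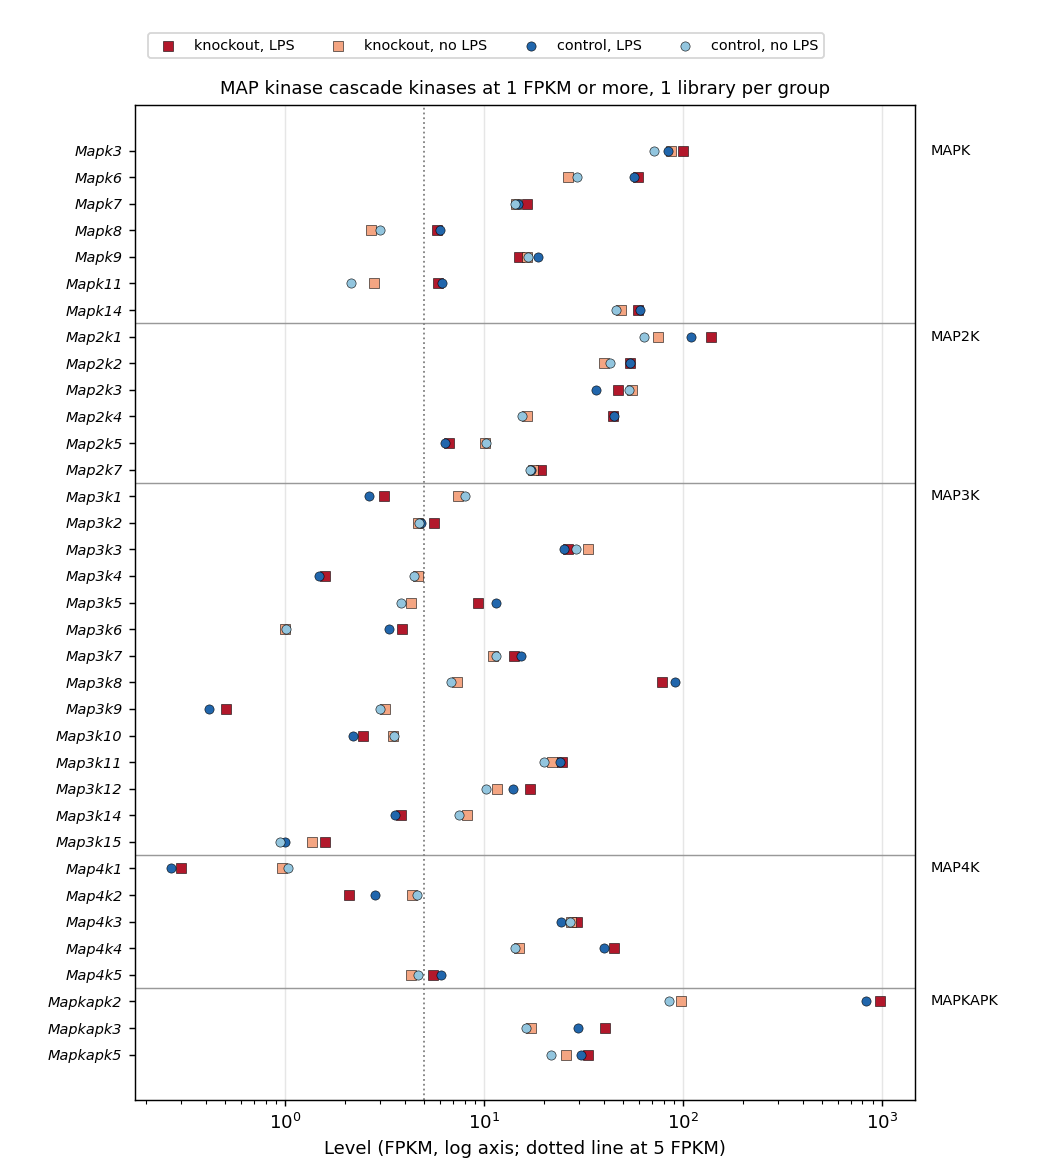
Level of 35 of the 36 kinases that reached 1 FPKM in at least 1 library (FPKM, log axis), by tier, with squares for the 2 knockout libraries and circles for the 2 control libraries, dark with LPS and pale without. Dark symbols stand far right of pale ones for Mapkapk2 and Map3k8, and knockout and control symbols of the same LPS state lie close together on nearly every row.

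At 2-fold, LPS went with higher levels of a few kinases and with lower levels of 1 kinase, Map3k1. In the MAPK tier 1 of 8 genes was higher in each genotype, a different gene in each (Mapk6 in knockout, Mapk11 in control). A member was counted at 2-fold or more on the log2(FPKM + 1) scale, which understates differences of low genes, if it had at least 5 FPKM in 1 or both libraries of the comparison. In knockout cells 6 of 29 members were higher with LPS and 1 was lower, beside 13.7% of all 8098 genes higher and 7.74% lower. In control cells 6 of 28 were higher and 1 was lower, beside 12.3% of all 8050 genes higher and 6.5% lower. Map3k8, Mapkapk2, Map4k4 and Map2k4 were at least 2-fold higher in both genotypes, and Map3k1 was at least 2-fold lower in both. Mapk6 and Mapkapk3 passed 2-fold in knockout and Map3k5 and Mapk11 in control, although with a pseudocount of 0.1 FPKM Map3k5, Mapk11 and Mapk8 also passed it in knockout (1.09, 1.04 and 1.09). The median log2 ratio was 0.30 over the members in knockout and 0.36 in control, beside 0.12 and 0.11 over all genes. At 1.5-fold, 10 of 29 members were higher in knockout (25.4% of all genes) and 10 of 28 in control (23.1%), and 2 and 3 were lower (17% and 15.1%). The counting interval of the FPKM ratio lay above 1 for 20 members in knockout and 20 in control, beside 45.8% and 46.1% of all genes, and below 1 for 5 and 6, beside 30.8% and 30.5%. So the members' shares at 2-fold and 1.5-fold were somewhat above those of all genes on the higher side and below them on the lower side, in counts of 10 or fewer and with no test. When libraries were scaled by the upper quartile of genes at 5 FPKM or more, the median over all genes was −0.26 in knockout and −0.25 in control, and over the members −0.06 and 0.01. Under that scaling 11 of 29 members in knockout and 7 of 28 in control took the other sign, among them Mapk3, Mapk7, Map2k7 and Map3k11 in both genotypes, and 3 members in knockout (Map3k8, Map4k4 and Mapkapk2) and 5 in control (those 3, Map2k4 and Map3k5) were still at least 2-fold higher. The shares of all genes at 2-fold or with a changed sign were not counted under that scaling. These counts therefore describe the members only.

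**Figure D2:**
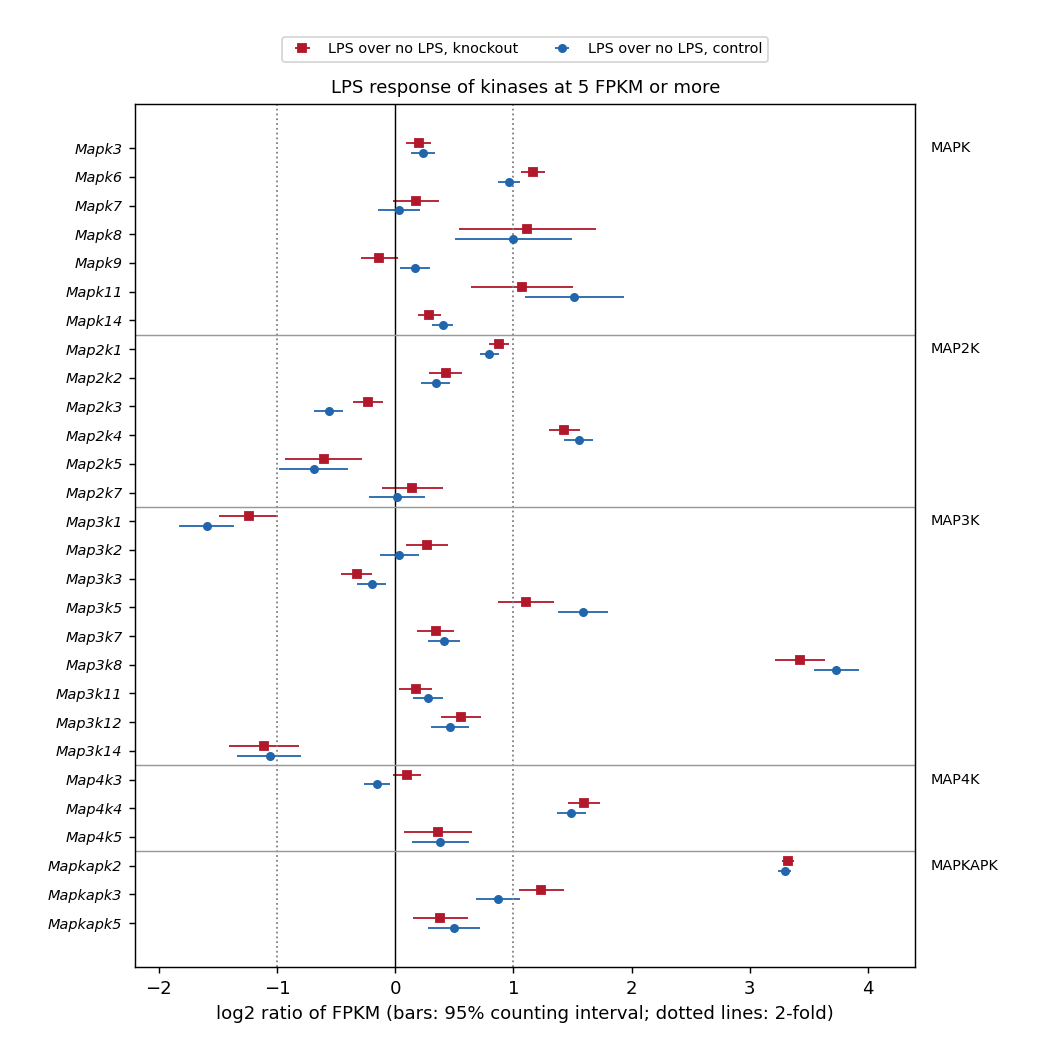
Log2 ratio of FPKM with LPS over without LPS for kinases at 5 FPKM or more, with no pseudocount, by tier; red squares are knockout, blue circles control, bars are 95% counting intervals and dotted lines mark 2-fold. Map3k8 and Mapkapk2 stand above 3 in both genotypes, and Map3k1 lies at the left end.

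At the top of the relay, Map4k4 was the MAP4K with the highest LPS ratio. Map4k4 encodes a Ste20-family kinase (HGK) that acts upstream of JNK. It stood at 45.3 FPKM in knockout with LPS and 14.97 FPKM in knockout without LPS, against 40.3 and 14.3 FPKM in control. Both LPS libraries were thus higher than both libraries without LPS, with an FPKM ratio of 3.02 (interval 2.76 to 3.31) in knockout and 2.81 (2.58 to 3.06) in control. Map4k3, whose product GLK is linked to amino acid sensing by mTORC1, had 29.4 and 27.4 FPKM in knockout and 24.5 and 27.2 FPKM in control with and without LPS. Its 2 ratios lay on either side of 0, at 0.10 in knockout and −0.15 in control on the log2 scale, neither near 2-fold. Map4k5 had ratios of 0.30 and 0.32. The low genes Map4k2 and Map4k1 went the other way. Map4k2 stood at 2.09 and 4.35 FPKM in knockout and 2.84 and 4.59 FPKM in control with and without LPS. Map4k1, which encodes the blood-cell kinase HPK1, was at 0.299 and 0.962 FPKM in knockout and 0.265 and 1.03 FPKM in control, which is about 6 estimated fragments in knockout with LPS.

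Among the MAP3Ks, Map3k8 had by far the highest LPS ratio. Its product TPL2 is held by the NF-kB precursor p105 and by ABIN-2 and, once freed, phosphorylates the ERK kinases MEK1 and MEK2 in LPS-treated macrophages. Map3k8 stood at 78.5 FPKM in knockout with LPS and 7.33 FPKM in knockout without LPS, against 91.1 and 6.84 FPKM in control. The FPKM ratio was 10.7 (9.304 to 12.4) in knockout and 13.3 (11.7 to 15.2) in control, so the control interval lies mostly above the knockout one but the 2 overlap. Map3k8 lies on chromosome 18 at 4331327 to 4353015, on the minus strand (GRCm38, the mm10 build).

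Of the ASK kinases, which answer oxidative stress, Map3k5 passed the minimum, and it reached 2-fold in control. Map3k5 (ASK1) had 9.27 and 4.31 FPKM in knockout with and without LPS, and 11.5 and 3.82 FPKM in control. The LPS ratio of FPKM was 2.15 (1.83 to 2.54) in knockout and 3.001 (2.59 to 3.48) in control. These intervals do not overlap, and the same holds for the LPS intervals of Mapk6, Mapk9, Map2k3 and Map4k3. How many of all genes share this was not counted. On the log2(FPKM + 1) scale the knockout response of Map3k5 minus its control response was −0.42, the lowest of the 28 members that passed in both genotypes. Map3k6 (ASK2) reached only 3.88 and 0.993 FPKM in knockout and 3.34 and 1.01 FPKM in control with and without LPS, under the minimum, with FPKM ratios of 3.905 and 3.31. Map3k15 (ASK3), at 1.59 and 1.36 FPKM in knockout and 1.002 and 0.942 FPKM in control, had LPS ratios near 1, and 13.9% of its exonic bases lie opposite exons of Pdha1, a far more abundant gene at 27.2 to 30.7 FPKM.

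Other MAP3Ks were lower with LPS. Map3k1 encodes MEKK1, a kinase of the JNK and ERK routes that also has a ubiquitin ligase domain. It stood at 3.14 and 7.39 FPKM in knockout with and without LPS, and at 2.64 and 7.97 FPKM in control. Its FPKM ratio was 0.425 (0.356 to 0.504) in knockout and 0.331 (0.281 to 0.388) in control. With a pseudocount of 5 FPKM the log2 ratios were −0.61 and −0.76, under 2-fold. Map3k14 encodes NIK, the kinase of the non-canonical NF-kB route, and was at 3.81 and 8.22 FPKM in knockout and 3.57 and 7.45 FPKM in control with and without LPS. Its log2 ratios of −0.94 and −0.89 fell short of 2-fold, and passed it with a pseudocount of 0.1 FPKM (−1.09 and −1.04). Below 5 FPKM, Map3k9 (MLK1) had 0.506 and 3.18 FPKM in knockout and 0.415 and 2.98 FPKM in control. Map3k4 (MEKK4) had 1.58 and 4.64 FPKM in knockout and 1.48 and 4.45 FPKM in control. These are FPKM ratios of 0.159 and 0.139 for Map3k9 and of 0.341 and 0.332 for Map3k4, so both low genes were lower with LPS in both genotypes.

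The kinase at the hub of Toll-like receptor signalling differed little at the RNA level. Map3k7, which encodes TAK1, had 14.1 and 11.1 FPKM in knockout with and without LPS, and 15.4 and 11.5 FPKM in control, which are log2 ratios of 0.32 and 0.39, and of −0.06 and 0.03 under upper-quartile scaling of genes at 5 FPKM or more. Map3k3 (MEKK3) and Map3k11 (MLK3) were the most abundant MAP3Ks without LPS. Map3k3 had 26.5 and 33.3 FPKM in knockout and 25.2 and 28.9 FPKM in control, with log2 ratios of −0.32 and −0.19. Map3k11 had ratios of 0.17 and 0.27, Map3k2 (MEKK2) of 0.23 and 0.03, and Map3k10 (MLK2), a low gene, of −0.38 and −0.50. Map3k12 (DLK), a kinase known from injured neurons, stood at 17.1 and 11.6 FPKM in knockout and 14.04 and 10.2 FPKM in control. Its value is uncertain, because 17.5% of its exonic bases lie opposite exons of Pcbp2, which had 120 and 58.9 FPKM in knockout and 101 and 55.9 FPKM in control with and without LPS, and the labels do not say whether strand was used in counting.

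In the MAP2K tier, Map2k4 stood out. Map2k4 encodes MKK4, which phosphorylates JNK and can also phosphorylate p38. It stood at 44.6 FPKM in knockout with LPS and 16.5 FPKM in knockout without LPS, against 45.3 and 15.4 FPKM in control. The FPKM ratio was 2.697 (2.46 to 2.96) in knockout and 2.93 (2.695 to 3.19) in control, and under upper-quartile scaling of genes at 5 FPKM or more the log2 ratios were 0.98 and 1.13. Map2k7 encodes MKK7, the other JNK kinase, and moved much less: 19.4 and 17.5 FPKM in knockout and 17.2 and 17.01 FPKM in control. A locus annotated on the same strand, Gm49320, shares 35.2% of the exonic bases of Map2k7, so its value is uncertain.

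The ERK kinases MEK1 and MEK2 were both abundant. Map2k1 (MEK1) stood at 139 and 75.4 FPKM in knockout with and without LPS, and at 110.4 and 63.5 FPKM in control, which are log2 ratios of 0.87 and 0.79. Map2k2 (MEK2) had 54.2 and 40.3 FPKM in knockout and 54.4 and 42.9 FPKM in control. Of the p38 kinases, Map2k3 (MKK3) was lower with LPS, at 47.3 and 55.5 FPKM in knockout and 36.5 and 53.9 FPKM in control. The FPKM ratios of Map2k3 were 0.852 (0.779 to 0.931) and 0.676 (0.620 to 0.737), neither at 2-fold. Its partner Map2k6 (MKK6) was under 1 FPKM. Map2k5 (MEK5), the ERK5 kinase, had 6.65 and 10.1 FPKM in knockout and 6.35 and 10.2 FPKM in control.

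Mapk3, Mapk14 and Mapk7 stayed well under 2-fold with LPS. Mapk3 (ERK1) stood at 99.8 and 86.9 FPKM in knockout with and without LPS, and at 84.5 and 71.8 FPKM in control. Mapk14, the p38 alpha gene, had 59.5 and 48.7 FPKM in knockout and 60.8 and 46.01 FPKM in control. Their log2 ratios lay between 0.20 (Mapk3, knockout) and 0.39 (Mapk14, control), and under upper-quartile scaling of genes at 5 FPKM or more those of Mapk3 and, in knockout, Mapk14 took the other sign. Mapk7 (ERK5) had ratios of 0.17 and 0.03.

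Larger differences were found for less studied or less abundant MAPKs. Mapk6 encodes ERK3, an atypical and short-lived MAPK that binds the kinase MK5. It stood at 59.4 FPKM in knockout with LPS and 26.5 FPKM in knockout without LPS, against 56.9 and 29.2 FPKM in control. The 2 LPS libraries were close to each other and above both others, with log2 ratios of 1.13 in knockout and 0.94 in control on either side of the 2-fold mark, and 0.73 and 0.57 under upper-quartile scaling of genes at 5 FPKM or more. Mapk11, the p38 beta gene, had 5.88 and 2.801 FPKM in knockout with and without LPS, and 6.12 and 2.15 FPKM in control. Mapk8 (JNK1) had 5.83 and 2.69 FPKM in knockout and 5.98 and 2.998 FPKM in control. Both rested on few fragments, an estimated 75 for Mapk11 and 61 for Mapk8 in control without LPS, and the intervals of their knockout and control ratios overlapped. Mapk9 (JNK2) was more abundant than Mapk8, at 14.97 and 16.4 FPKM in knockout and 18.7 and 16.7 FPKM in control. Its FPKM ratio was 0.912 (0.819 to 1.02) in knockout, an interval that includes 1, and 1.12 (1.03 to 1.23) in control.

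Mapkapk2 was the member with the largest gain in level. MK2, its product, is phosphorylated by p38 and in turn phosphorylates tristetraprolin, the protein that binds and destabilises Tnf mRNA. Mapkapk2 stood at 978 FPKM in knockout with LPS and 97.7 FPKM in knockout without LPS, against 834 and 84.97 FPKM in control. The FPKM ratio was 10.01 (9.65 to 10.4) in knockout and 9.81 (9.47 to 10.2) in control, nearly the same in both genotypes. Mapkapk3 encodes the close relative MK3 and stood at 40.7 and 17.3 FPKM in knockout with and without LPS, and at 29.8 and 16.3 FPKM in control. Its log2 ratios were 1.19 in knockout and 0.83 in control, and their difference, 0.36, was the highest of the 28 members. Mapkapk5 (MK5), the partner of ERK3, had ratios of 0.37 and 0.48. The value of Mapkapk5 is uncertain, because 56.5% of its exonic bases are shared with Adam1a (at most 0.355 FPKM) and 56.4% with Gm42878, both on the same strand, and Gm42878 is a symbol with no value here.

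The 250 bases before the annotated start are shown for the kinases that passed 2-fold with LPS in both genotypes and have a window in the RefSeq table (GRCm38.p6): Mapkapk2 and Map2k4, which were higher, and Map3k1, which was lower. All lie on the minus strand and are written 5′ to 3′ on the gene's strand. For 44 of the 47 kinase windows, bases after the start were found in an annotated transcript of the gene. They were not found for the first Map2k4 start, which lies outside the annotated gene (65688243 to 65788297). The second Map2k4 start lies inside it. Capitals mark the letters GAGGAAGT on either strand, the PU-box form of the site bound by the Ets factors PU.1 and Spi-C. The other motifs searched, each on both strands, were the NF-kB form (GGGA, any 4 bases, then CC), TGANTCA (AP-1, N for any base) and TGACGTCA (CRE). The 4 windows hold none of these 3, so no matches overlap in them.
Mapkapk2 chr1:131097844-131098093: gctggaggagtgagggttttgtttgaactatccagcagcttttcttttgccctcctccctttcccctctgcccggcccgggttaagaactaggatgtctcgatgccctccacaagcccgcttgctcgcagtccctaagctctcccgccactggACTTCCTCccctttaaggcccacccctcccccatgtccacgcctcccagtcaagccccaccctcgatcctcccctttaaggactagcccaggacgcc
Map2k4 chr11:65788360-65788609: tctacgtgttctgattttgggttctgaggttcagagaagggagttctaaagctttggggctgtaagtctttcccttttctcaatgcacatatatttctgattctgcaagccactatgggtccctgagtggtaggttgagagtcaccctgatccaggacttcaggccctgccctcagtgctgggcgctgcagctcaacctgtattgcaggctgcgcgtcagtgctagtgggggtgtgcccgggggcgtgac
Map2k4 second start chr11:65745857-65746106: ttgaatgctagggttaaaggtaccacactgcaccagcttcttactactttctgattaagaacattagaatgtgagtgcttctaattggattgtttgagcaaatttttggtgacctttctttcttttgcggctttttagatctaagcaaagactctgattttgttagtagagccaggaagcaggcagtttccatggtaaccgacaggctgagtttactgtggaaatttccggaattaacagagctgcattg
Map3k1 chr13:111808994-111809243: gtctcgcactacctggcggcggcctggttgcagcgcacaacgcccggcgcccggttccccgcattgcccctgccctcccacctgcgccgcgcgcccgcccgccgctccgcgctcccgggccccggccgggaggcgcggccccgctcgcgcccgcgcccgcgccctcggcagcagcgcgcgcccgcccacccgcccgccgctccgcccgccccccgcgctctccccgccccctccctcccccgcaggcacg
The window of Mapkapk2 holds 1 PU-box match, 97 to 90 bases before the start and on the opposite strand. That of Map3k1 is GC-rich, at 85.2% G and C, against 60.4% for Mapkapk2 and 54% and 40% for the 2 starts of Map2k4. Of all 32851 RefSeq windows, 2.44% hold the PU-box letters, 17.6% the NF-kB letters, 6.75% the AP-1 letters and 1.55% the CRE letters. Of the 47 windows of the 35 members that have any, 2 hold the PU-box letters (Mapkapk2 and Map3k3), 13 the NF-kB letters, 3 the AP-1 letters and 1 the CRE letters. The 13 windows belong to 12 members, because 2 overlapping windows of Mapk7 hold the same sites and are both counted. The NF-kB letters match on both strands at 1 place in Map4k2 (GGGACTTCCC), a gene that stood lower with LPS, and Map3k7 holds them at 2 places, GGCTTCTCCC and GGAAATTCCC. A match of letters is a description of the window and not evidence of binding.

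The LPS response of the kinases was much alike in knockout and control. The 2 responses share no library, and over the 28 members at 5 FPKM in both comparisons Pearson's r of the log2 ratios was 0.984 and Spearman's rho 0.973, as a description across genes, which are not independent replicates. The sign was the same for 26 of the 28, with Mapk9 and Map4k3 as the exceptions. The same values were not computed over all genes, so they do not show a trait particular to the kinases. The median absolute difference between the responses was 0.11 on the log2 scale, and the differences ran from −0.42 (Map3k5) to 0.36 (Mapkapk3).

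**Figure D3:**
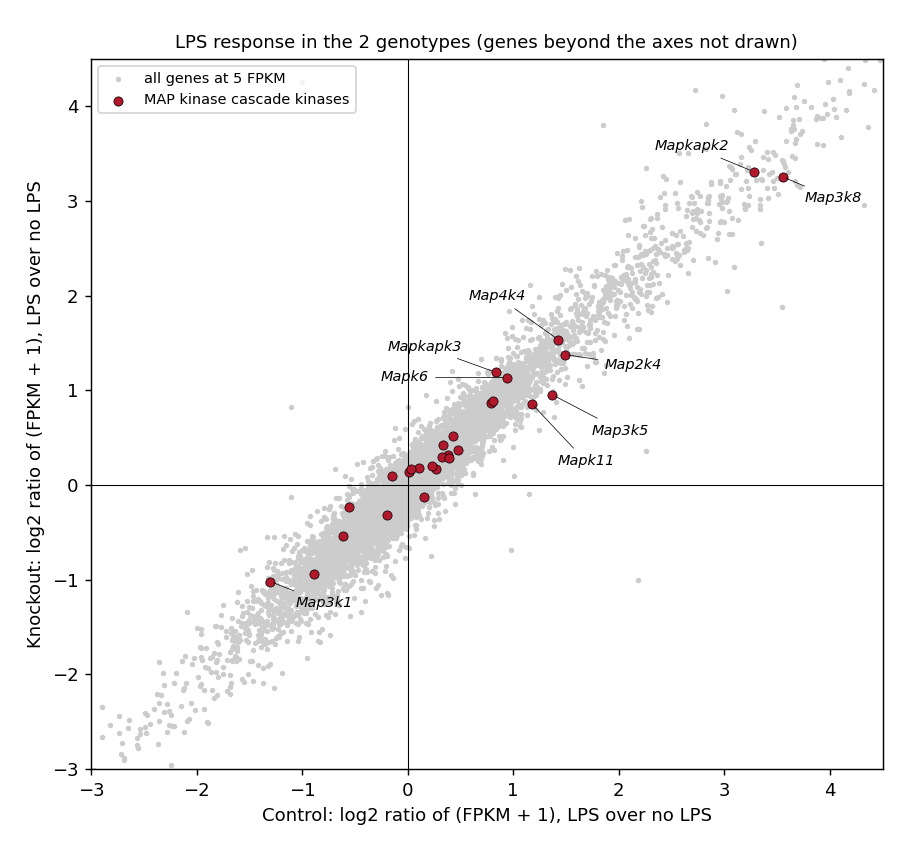
Log2 ratio of (FPKM + 1) with LPS over without LPS in knockout (vertical axis) against control (horizontal axis); grey points are all genes at 5 FPKM in both comparisons, red points the 28 kinases, and those at 2-fold in either genotype are named. The kinases lie along the diagonal with the other genes, Mapkapk2 and Map3k8 near the upper end and Map3k1 at the lower end.

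The make-up of some sets of related kinases differed with LPS. FPKM is per length, so levels of different genes can be set side by side. Shares in the sets that hold Map2k7, Mapkapk5 or Map3k12 carry the uncertainty stated above for those genes. Map3k8 held 40.8% of the summed MAP3K level in knockout with LPS and 5.94% in knockout without LPS, against 45.4% and 5.99% in control. Map2k4 made up 69.7% of the pair of JNK kinases Map2k4 and Map2k7 in knockout with LPS and 48.5% without, against 72.5% and 47.6% in control. Mapkapk2 held 92.9% of the MAPKAPK sum in knockout with LPS and 69.4% without, against 93.2% and 69.03% in control. In each of these 3 sets 1 gene took a larger share with LPS, in both genotypes. The share of Mapk8 among the JNK genes was 28.03% and 14.1% in knockout with and without LPS, and 24.2% and 15.2% in control. Other sets kept their order: Mapk14 held 90.6% to 94.7% of the p38 sum and Map2k3 98.6% to 99.7% of the sum of Map2k3 and Map2k6 over the 4 libraries. Summed over tiers, the 3 MAPKAPK genes went furthest apart, at 1053 FPKM in knockout with LPS and 141 without, against 894 and 123 FPKM in control. The 13 MAPK genes summed to 323 and 253 FPKM in knockout with and without LPS, and to 304 and 235 FPKM in control.

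**Figure D4:**
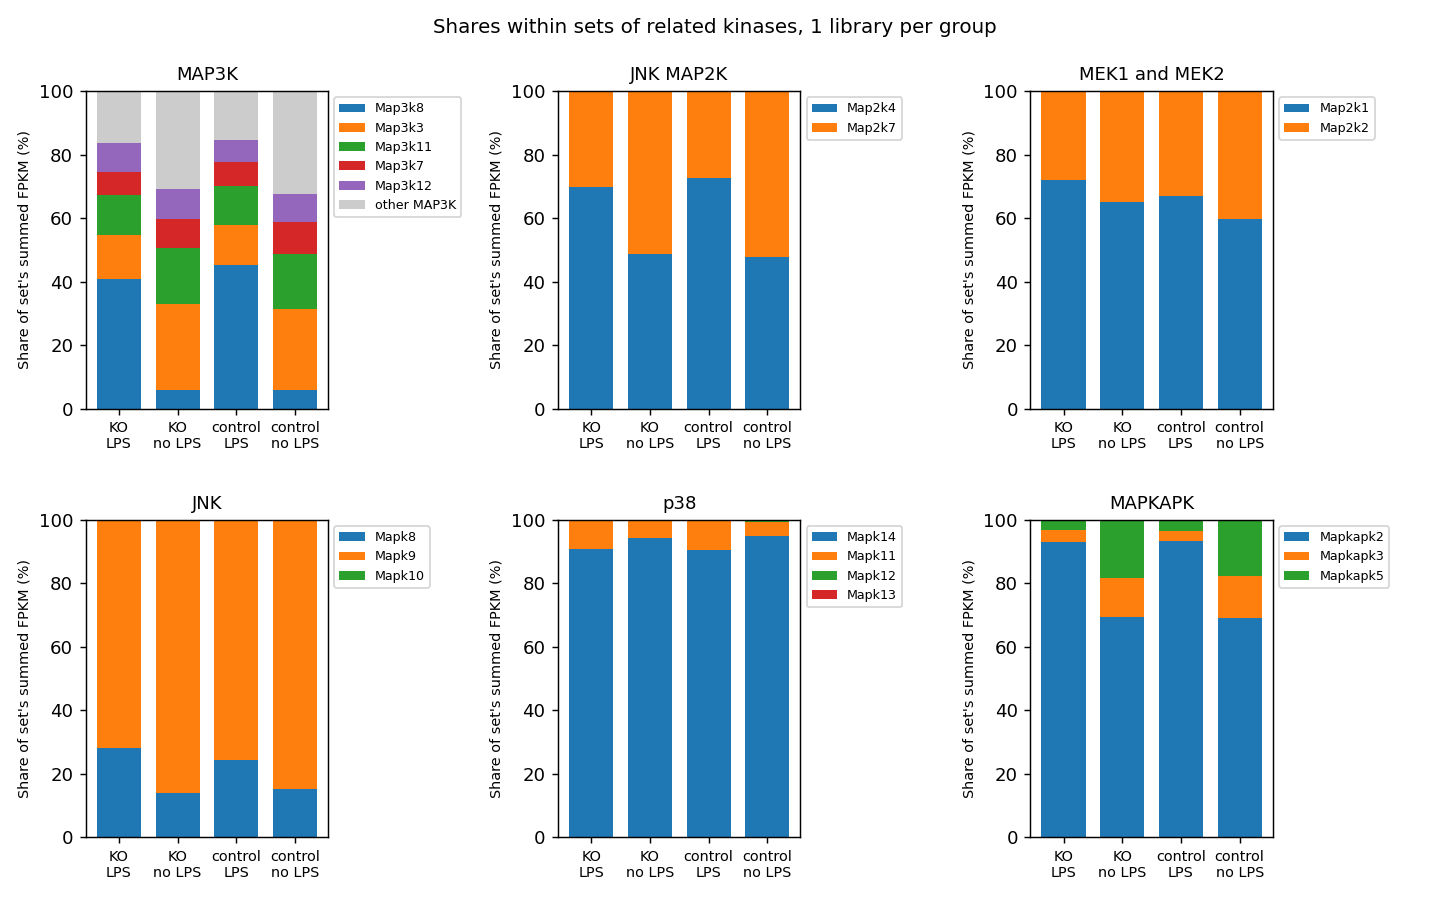
Share of each gene in the summed FPKM of 6 sets of related kinases (percent, bars from 0 to 100) in knockout with LPS, knockout without LPS, control with LPS and control without LPS. Map3k8, Map2k4 and Mapkapk2 take larger shares of their sets in the 2 LPS bars, whereas Mapk14 dominates the p38 set in all 4.

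Between genotypes, no kinase differed by 1.5-fold or more among those with at least 5 FPKM. With LPS 0 of 27 members were at least 2-fold higher in knockout than in control and 0 lower, beside 0.493% and 0.4% of all 7509 genes, and 0 were at least 1.5-fold higher or lower, beside 2.86% and 1.69%. Without LPS 0 of 24 members were 2-fold higher or lower, beside 0.49% and 0.412% of all 7762 genes, and 0 were 1.5-fold higher or lower, beside 1.75% and 1.37%. With so few members, shares of this size over all genes also give counts at or near 0. The median log2 ratio of knockout over control was 0.07 with LPS and 0.07 without over the members, beside 0.09 and 0.07 over all genes, and every member lay within the central 95% of all genes in both states (−0.49 to 0.60 with LPS, −0.37 to 0.49 without). Under upper-quartile scaling of genes at 5 FPKM or more the members' medians were −0.04 and −0.02, and the counts at 2-fold were again 0.

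The highest genotype ratio with LPS was that of Mapkapk3, at 0.44, from 40.7 FPKM in knockout and 29.8 FPKM in control (FPKM ratio 1.37, interval 1.21 to 1.54). Map2k3 followed at 0.37 and Map2k1 at 0.33. Mapkapk2, the most abundant, stood at 0.23 with LPS and 0.20 without. At the other end, Mapk9 stood at −0.30, Map3k5 at −0.28 and Map3k8 at −0.21 with LPS. Without LPS, Mapk3 (0.27) and Map2k1 (0.24) were highest and Mapk6 (−0.13) was lowest. With LPS the counting interval lay above 1 for 10 of 27 members and below 1 for 3 (Mapk9, Map3k5 and Map3k8), beside 32.7% and 7.98% of all genes. Without LPS it lay above 1 for 7 of 24 and below 1 for 1 (Mapk6), beside 27.6% and 7.37% of all genes. The members' shares, 37.04% and 11.1% with LPS and 29.2% and 4.17% without, were thus near those of all genes. Below the 5 FPKM minimum, Map3k15 had FPKM ratios of 1.58 (1.04 to 2.42) with LPS and 1.45 (1.01 to 2.07) without, and Map4k2 of 0.734 (0.545 to 0.984) with LPS. Of the 12 stromal and endothelial markers 8 reached 5 FPKM, and the endothelial genes Pecam1, Cdh5 and Kdr were not among them. In knockout, Acta2 and Tagln were lower at 2-fold in both states and Myl9 without LPS. The 8 markers had a median genotype ratio of −0.69 with LPS and −0.80 without. Their median ratio for LPS was 0.07 in knockout and 0.03 in control. Their part in the kinase values was not tested, and fewer cells of a type and less RNA per cell cannot be told apart in these bulk libraries.

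**Figure D5:**
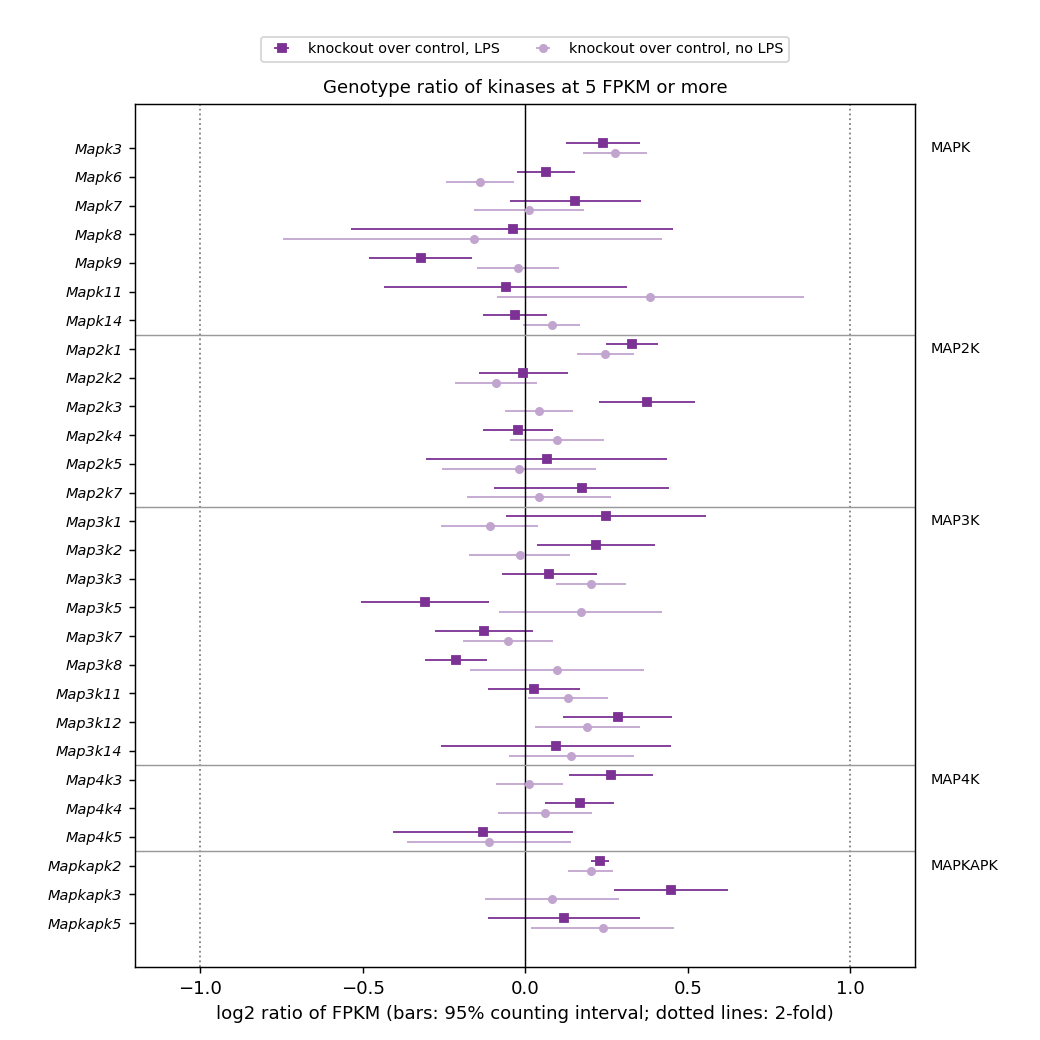
Log2 ratio of FPKM in knockout over control for kinases at 5 FPKM or more in at least 1 library, with no pseudocount; dark squares are with LPS, pale circles without, bars are 95% counting intervals and dotted lines mark 2-fold. All points lie well inside the dotted lines, with Mapkapk3 with LPS farthest right and Mapk9 and Map3k5 with LPS farthest left.

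The rest of the pathway was followed with lists of partner genes. Among 12 partners of TAK1 and TPL2 at 5 FPKM, 4 stood 2-fold or more higher in knockout with LPS and 5 in control, and Tab1 was lower in both. Nfkb1, which encodes p105, the protein that holds TPL2, was at 262 and 24.1 FPKM in knockout with and without LPS, and at 187 and 20.2 FPKM in control. Tab2, which encodes a TAK1-binding adaptor, had log2 ratios of 1.94 and 1.73. Ikbkb, the gene of IKK beta, had 71.4 and 24.7 FPKM in knockout and 53.8 and 21.2 FPKM in control, and the adaptor gene Traf2 had 31.3 and 10.4 FPKM in knockout and 25.5 and 9.33 FPKM in control. Tnip2, which encodes ABIN-2, passed 2-fold in control only (0.87 in knockout and 1.15 in control), and that difference between genotypes was not tested. Of 11 LPS receptor and adaptor genes, 5 were higher in knockout and 6 in control, Cd14 and Irak3 having the largest ratios (4.13 and 2.79 in knockout, 4.94 and 2.86 in control), whereas Tlr4 stood at −0.79 and −0.64. Of 12 RAF and other upstream kinases outside the Map symbols at 5 FPKM, 1 was at least 2-fold higher in knockout on the log2(FPKM + 1) scale (Taok1, 1.15, against 0.96 in control), 0 in control, and 0 lower in either. Taok1 stood at 20.6 and 8.76 FPKM in knockout with and without LPS, and at 17.99 and 8.75 FPKM in control. Its FPKM values without the added 1 thus differed by more than 2-fold in both genotypes. Braf was just under the mark on that scale in knockout, at 7.09 and 3.06 FPKM with and without LPS, against 5.804 and 3.53 FPKM in control. Its knockout FPKM values without the added 1 also differed by more than 2-fold. Pak1 had ratios of −0.87 and −0.74, and Taok3 of −0.69 and −0.78. Of 8 scaffold genes, the beta-arrestin gene Arrb1 was at least 2-fold lower in both genotypes (−1.73 and −1.62), and Mapk1ip1l was at least 2-fold higher in knockout (1.07, against 0.89 in control).

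Downstream of the MAPKs, the kinase genes went both ways. Of 5 RSK, MSK and MNK genes at 5 FPKM, Rps6ka4, which encodes MSK2, was higher (1.33 in knockout and 1.32 in control) and Mknk2, which encodes the eIF4E kinase MNK2, was lower. Mknk2 stood at 5.51 and 36.9 FPKM in knockout with and without LPS, and at 5.64 and 29.9 FPKM in control. Rps6ka3 (RSK2) had ratios of 0.91 and 0.99. Of 9 MAPK phosphatase genes, Dusp1, Dusp2 and Dusp16 were at least 2-fold higher and Dusp6 and Dusp3 at least 2-fold lower in both genotypes. Dusp16, whose product acts on JNK, stood at 82.02 and 3.93 FPKM in knockout and 67.2 and 3.17 FPKM in control. Among nuclear targets, of which 18 passed the minimum in knockout and 17 in control, Junb, Fosl1, Fosl2 and Egr1 were higher and Jun, Fos and Myc lower with LPS in both genotypes, with Fos at 21.9 and 96.3 FPKM in knockout and 23.8 and 71.6 FPKM in control. Mef2c was counted as lower in knockout alone because its level in control without LPS, 4.92 FPKM, lay just under the minimum, but its log2 ratios were alike, at −1.76 in knockout and −1.69 in control. Of 7 genes around the p38 and MK2 axis, 5 were higher in knockout and 4 in control, Il6, Tnf, Ier3 and Zfp36 being higher in both and Elavl1 in knockout (1.08, and 0.81 in control). Zfp36l2, a relative of Zfp36, was at least 2-fold lower in both, at 19.7 and 74.2 FPKM in knockout and 16.1 and 74.3 FPKM in control with and without LPS. Zfp36, the tristetraprolin gene, was at 1015 and 82.4 FPKM in knockout and 1153 and 77.6 FPKM in control. These counts share the background shares given above for LPS. Between genotypes, 1 gene of these 8 partner lists, each with 5 to 16 genes at 5 FPKM, passed 2-fold, Cd14 without LPS (1.03). Of all genes 0.49% were higher and 0.412% lower at 2-fold without LPS, and 0.493% and 0.4% with LPS. A count of 1 cannot be set apart from such shares. With LPS, Dusp4 was just under the mark on the log2(FPKM + 1) scale (0.97, at 19.5 FPKM in knockout and 9.48 FPKM in control). Il6 (0.80), Tnf (0.79) and Atf3 (0.75) followed, and Dusp1 stood at −0.54. These differences were not tested.

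The members are spread over the genome, with 7 of them on chromosome 11 (GRCm38) and at most 4 on any other. There are 2 pairs of neighbouring p38 genes. Mapk12 and Mapk11 lie 1782 bases apart on chromosome 15 and Mapk14 and Mapk13 lie 20890 bases apart on chromosome 17, each pair on 1 strand. Of each pair 1 gene was well above the other: Mapk11 and Mapk14 passed 5 FPKM, whereas Mapk12 and Mapk13 stayed at 0.190 and 0.217 FPKM or less. Mapkapk2 lies on chromosome 1 at 131053700 to 131097826 and Map2k4 on chromosome 11 at 65688243 to 65788297, both on the minus strand. Map4k4 lies on chromosome 1 at 39900913 to 40026310 on the plus strand, and Map3k1 on chromosome 13 at 111746428 to 111808993 on the minus strand.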

How the data were processed

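Poly(A) RNA was measured in 4 libraries, 1 for each combination of genotype and LPS. The deposited values are FPKM per gene, in a separate file for each library, with 23284 genes in common. Per the submitters' processing notes, the tools were Bowtie2 2.2.3, Cuffnorm 2.2.1, SAMtools 0.1.19 and TopHat2 2.0.13, the build was mm10, and roles and order are not given there. RNeasy columns and a TruSeq stranded mRNA kit were used, per the labels' protocols. The annotation and the use of strand in counting are not given in the sources used here, nor is the scaling of FPKM, whose sums were 819232 and 525348 in knockout with and without LPS, against 736818 and 500123 in control. The median-ratio factors of the deposited values were 1.001 and 1.006 in knockout with and without LPS, and 1.002 and 1.006 in control. By that measure the values were thus already level between libraries, although their sums differ.

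Log2 ratios of (FPKM + 1) between single libraries were computed with Python 3.11.15 (pandas 2.3.3, scipy 1.17.1). The minimum for a comparison was 5 FPKM in 1 or both of its libraries, and calls were made at 2-fold. Every member at 1 FPKM or more in at least 1 library but 1, which is counted but not reported here, is named with values, and of each partner list the counts and up to 4 of the members with the largest ratios. Genes outside this rule, named after their values were seen, are Tlr4, Tnip2, Tab1, Elavl1, Zfp36l2, Mef2c, Fos, Jun, Fosl1, Dusp3, Acta2, Tagln, Myl9 and the overlapping genes. Because no group has a replicate, no test was run. The members and lists were chosen with earlier results of these data known.

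Depth was recovered from low FPKM values, which are whole multiples of 1 fragment's value. Of 3175 low genes, 83.2% were whole multiples within a tolerance of 0.02, against 4.35% after scrambling. With 351 single-transcript genes of GENCODE vM21 and an effective length 207 bases under the exonic length, the relative depth was 51.6% in knockout with LPS, 82.8% in knockout without LPS, 67.8% in control with LPS and 100% in control without LPS. Fragments of a gene were estimated with the median length of its basic coding transcripts, or of all its transcripts where it has none. Of the 23284 symbols 20911 were found in GENCODE, and the rest were given the median effective length of all GENCODE genes. The shares of all genes by counting interval include these. Counting and intervals were tested on simulated data. Promoter windows came from RefSeq (GRCm38.p6).

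Alternatives were pseudocounts of 0.1 and 5 FPKM, a minimum of 1 or 20 FPKM or no minimum, libraries scaled by median ratios or by upper quartiles, and thresholds of 1.5-fold and 3-fold. Scaling by median ratios is no separate check, because its factors were 1.001 to 1.006 and could hardly move a value. Scaling by the upper quartiles of genes at 5 FPKM or more was chosen after seeing the data.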

Additional observations from a re-analysis of the deposited data

Results flagged for a closer look

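For 2 kinases at 5 FPKM or more, the LPS ratios of the 2 genotypes had opposite signs, and the difference was not tested, since each ratio rests on 1 library a group. For Mapk9 the log2 ratio was −0.13 in knockout and 0.16 in control, a knockout minus control difference of −0.28. The counting interval of the FPKM ratio was 0.819 to 1.02 in knockout and 1.03 to 1.23 in control. For Map4k3 the log2 ratio was 0.10 in knockout and −0.15 in control, a difference of 0.24, with intervals of 0.985 to 1.16 and 0.832 to 0.973. In both kinases the knockout interval includes 1. Under upper-quartile scaling of genes at 5 FPKM or more the ratios were −0.51 and −0.20 for Mapk9 and −0.30 and −0.51 for Map4k3, below 0 in both genotypes.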

How the results depend on the processing

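No paired analysis was possible because each group is 1 library and the labels give no replicate number. The counts of kinases between genotypes at 2-fold were 0 under every alternative run, and also at 1.5-fold and 3-fold. Of these alternatives, scaling by median ratios could hardly move any count. With LPS, the counts of higher kinases (6 in each genotype) became 10 in knockout and 10 in control at 1.5-fold and 2 and 2 at 3-fold, 3 in knockout under upper-quartile scaling of genes at 5 FPKM or more, 9 in knockout with a pseudocount of 0.1 FPKM, and 4 in control with a pseudocount of 5 FPKM or a minimum of 20 FPKM. The count of lower kinases (1 in each genotype) became 2 in knockout and 2 in control with a pseudocount of 0.1 FPKM and under both upper-quartile scalings, 0 and 0 with a pseudocount of 5 FPKM, with a minimum of 20 FPKM and at 3-fold, 3 and 3 with a minimum of 1 FPKM or none, and 2 and 3 at 1.5-fold. Except at 1.5-fold, the shares of all genes were not counted under these settings. Whether the members moved differently from all genes is thus not shown. The median LPS ratio of the members in control was 0.044 with no minimum, 0.20 under upper-quartile scaling and 0.012 under that of genes at 5 FPKM or more, and in knockout 0.168, 0.145 and −0.062 under these 3 settings. No single kinase that passed 2-fold changed sign under these alternatives. Depth limits low members most: Mapk8 rested on about 45 estimated fragments in knockout without LPS, and Mapkapk2 on 20680 in knockout with LPS.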
